A study of Saccharomyces cerevisiae with 6 samples.

Results

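Transcript levels of YRA1 and of 9 other genes whose products act in the export of mRNA from the nucleus were compared between yeast cells that overexpress YRA1 and cells that do not. The genes were YRA1, YRA2, SUB2, MEX67, MTR2, NAB2, NPL3, GBP2, HRB1 and TOM1, taken by their symbol in the annotation of the array. All 10 were measured, each by 1 probe set, out of 5449 Saccharomyces cerevisiae genes (5498 probe sets) with a named probe set. Both groups were strain W303-1A, haploid cells of mating type a with the alleles trp1-1, ura3-1, ade2-1 and his3-11,15 and a mutant LEU2 gene, which leave them unable to make certain nutrients, and can1-100, and both also keep the chromosomal YRA1 gene. YRA1∆i cells carried pRS413::GAL-YRA1∆i, a centromeric plasmid on which the GAL1 promoter drives a copy of YRA1 that has lost its intron. WT cells carried pRS413::GAL-YRA1, the same construct with the intron in place, so WT is not a strain free of the plasmid. Cultures in raffinose were moved to 2% galactose for 4 hours, and total RNA of 3 biological replicates of each group was hybridised to 1-colour Affymetrix Yeast Genome 2.0 arrays. The labels do not say whether replicates came from separate transformants.

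In the nucleus, a new transcript is packaged with RNA-binding proteins before it can leave. The DEAD-box ATPase Sub2 and the THO complex act on nascent RNA and pass it to adaptors such as Yra1, Nab2 and Npl3. The adaptors recruit the heterodimer of Mex67 and Mtr2, which takes the particle through the nuclear pore. YRA1 is unusual among yeast genes because its level is held down through its own intron, in a feedback loop that acts on splicing and on the fate of unspliced RNA. A copy without the intron escapes this control.

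The values were log2 RMA signals, which are corrected for background, brought to the same distribution on every array and summarised over the probes of a probe set. Array medians over the 5498 probe sets lay between 11.16 and 11.18, and 98.9% of these probe sets had a mean above 4.70. That value is the 95th percentile of the other named probe sets. These were taken, without a check of species, as probe sets for Schizosaccharomyces pombe, which would have no target here. Any S. cerevisiae probe set annotated to several genes also fell among them. Replicate 2 of each group stood apart. The replicate 2 arrays differed from each other with an SD of 0.23 (log2, across probe sets), and from the other arrays of their own groups with SDs of 0.33 to 0.36. YRA1∆i replicates 1 and 3 were the closest arrays, with an SD of 0.11. For several genes, results are therefore also given without both replicate 2 arrays. Of the markers of mating type a, STE2, MFA1, MFA2 and AGA2 had signals of 12.32 to 14.09, while BAR1, at 3.14 to 3.47, was below 4.70 on every array. Genes of the other mating type (STE3, MF(ALPHA)1, MF(ALPHA)2 and SAG1) had 6.35 to 10.48. Of these, the pheromone gene MF(ALPHA)1 had 7.72, 6.61 and 7.82 in YRA1∆i cells and 9.01, 7.74 and 8.57 in WT cells, which overlap by group but differ by -1.29, -1.13 and -0.75 in replicate pairs 1, 2 and 3. Its adjusted p was 0.312 in limma and 0.0337 with replicate number as a block, where 2.60% of all probe sets were below 0.05. Without both replicate 2 arrays it was 0.0276 in limma, where 12.5% were. Pairs join arrays of the same replicate number, and only number 2 matched its like best. The part of MF(ALPHA)1 in other results was not tested.

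YRA1 had the largest change of the 10 genes. Its signal was 14.48, 14.62 and 14.50 in YRA1∆i replicates 1, 2 and 3, against 13.35, 13.22 and 13.44 in WT replicates 1, 2 and 3. The lowest YRA1∆i array lay 1.04 (log2) above the highest WT array. The change, as YRA1∆i minus WT on the log2 scale, was 1.20 (SE 0.08), or 2.30-fold with a 95% confidence interval of 1.99 to 2.64. By size of change YRA1 ranked 35 of 5498 probe sets, and by p-value it ranked 3.

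In limma with Benjamini-Hochberg adjustment over all 5498 probe sets, YRA1 had an adjusted p of 0.0102. The study's threshold was 1.5-fold or more with the adjusted p under 0.01. In this fit it was passed by 0 of the 10 members and by 0 probe sets in all (0.00%). The paper's own list of up-regulated genes holds YRA1, NAB2 and MEX67, with NAB2 and MEX67 at less than 1.5-fold, so that list did not keep to this threshold. An unadjusted p below 0.05 was reached by 3 members, YRA1, NAB2 and MEX67, all higher in YRA1∆i cells, and by 885 probe sets (16.1%), 9.79% higher and 6.31% lower. At a looser threshold of 0.05 with the same fold, 1 of the 10 members passed, YRA1, in the upward direction, against 14 of 5498 probe sets (0.255%) in that direction and 22 (0.400%) in both. Without both replicate 2 arrays the YRA1 change was 1.09 with an adjusted p of 0.00329 in limma, and 4.20% of all probe sets then passed the looser threshold. The YRA1 call at the looser threshold was lost without YRA1∆i replicate 1 (adjusted p = 0.109 in limma), without YRA1∆i replicate 3 (0.112), without WT replicate 1 (0.0989) or without WT replicate 3 (0.0802), where no probe set passed at all, while the change itself stayed between 1.14 and 1.25 with any array left out.

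The signal of the YRA1 probe set adds up the chromosomal and the plasmid transcripts, which it cannot tell apart. Spliced and unspliced YRA1 RNA were not measured apart either. Likewise, a larger share of cells with YRA1 RNA and more YRA1 RNA per cell give the same signal. GAL1, the galactokinase gene from which the promoter comes, had 14.70, 14.63 and 14.70 in YRA1∆i cells against 14.77, 14.75 and 14.72 in WT cells, a change of -0.07 (SE 0.06, adjusted p = 0.669 in limma). GAL7 and GAL10, which are induced with GAL1, changed by -0.06 and 0.0083 (adjusted p = 0.710 and 0.962 in limma). All 3 genes were near the highest value on any array, 15.12, as was YRA1 in YRA1∆i cells, and a difference in induction between the groups was not tested.

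HIS3 is the marker of the plasmid in both groups. It was at 13.59, 13.92 and 13.65 in YRA1∆i cells and at 14.06, 13.93 and 14.01 in WT cells. The groups were only just apart, since the replicate 2 arrays differed by -0.01 while pairs 1 and 3 differed by -0.47 and -0.36. The HIS3 change was -0.28 (SE 0.10, adjusted p = 0.262 in limma), and -0.41 without both replicate 2 arrays (adjusted p = 0.0223 in limma). In that fit 12.5% of all probe sets had an adjusted p below 0.05. The probe set also reads the chromosomal his3-11,15 allele, and the part of plasmid copy number in the YRA1 signal was not tested. On the chromosome, the neighbours of YRA1 with a probe set gave changes of -0.18 for SDH6, -0.06 for ARO10 and -0.04 for RPP2B, with adjusted p of 0.833, 0.932 and 0.828 in limma.

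**Figure D1:**
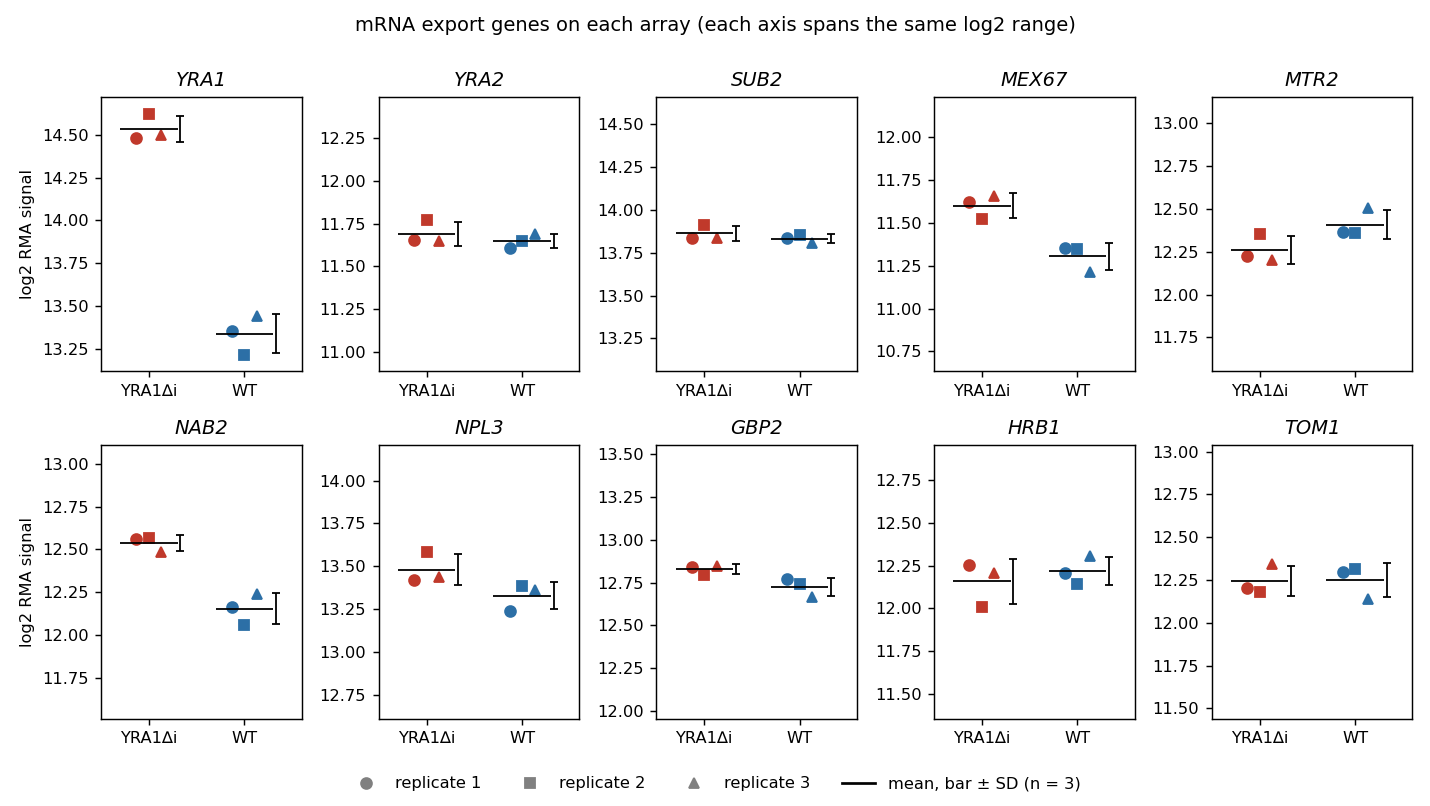
Log2 RMA signal (vertical axes, all spanning the same range) of the 10 export genes on each YRA1∆i and WT array, with the mean as a line and the SD as a bar (n = 3). YRA1 was at 14.48 to 14.62 in YRA1∆i cells and 13.22 to 13.44 in WT cells; NAB2 and MEX67 show smaller gaps between the groups, and SUB2, YRA2, HRB1 and TOM1 overlap.

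Of the other 9 genes, none passed either threshold. Their changes ran from -0.15 to 0.39 with a median of 0.04, beside a median of 0.01 over all tested probe sets. Of the 9, 6 were positive, beside 52.4% of all tested probe sets. With YRA1 included, the groups did not overlap at 6 of 10 members (5 higher and 1 lower in YRA1∆i cells), where 22.2% of all probe sets had groups that did not overlap, 13.6% higher and 8.57% lower. The members varied little between replicates. Their residual SDs were 0.04 to 0.11 with a median of 0.08, and the median over all tested probe sets was 0.13. The group means of all members lay above the array medians of 11.16 to 11.18, and probe sets of like signal were not compared.

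YRA2 encodes the second yeast protein of the same family as Yra1, which is not essential for growth. Its signal was 11.65, 11.77 and 11.65 in YRA1∆i cells and 11.61, 11.65 and 11.69 in WT cells. The groups overlapped, and the change was 0.04 (95% confidence interval -0.12 to 0.20, adjusted p = 0.823 in limma). The upper end of the interval is 1.15-fold, so a change of YRA2 as large as that of YRA1 lay outside it.

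SUB2, the ATPase that works with THO and binds Yra1, had nearly the same signal on all arrays. It was 13.84, 13.91 and 13.84 in YRA1∆i cells and 13.83, 13.86 and 13.80 in WT cells. The change was 0.03 (95% confidence interval -0.11 to 0.17, adjusted p = 0.849 in limma), and only 4.84% of the tested probe sets had a smaller residual SD.

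The subunits of the export receptor gave changes of opposite sign, neither of which passed the test. MEX67, the large subunit, had 11.63, 11.52 and 11.66 in YRA1∆i cells against 11.36, 11.35 and 11.21 in WT cells. All 3 YRA1∆i arrays lay above all 3 WT arrays, by at least 0.16, and the change was 0.30 (SE 0.07, 1.23-fold, adjusted p = 0.140 in limma). MTR2, the small subunit, had 12.23, 12.36 and 12.20 in YRA1∆i cells and 12.36, 12.36 and 12.50 in WT cells. Here the groups were separated by less than 0.01, the replicate 2 arrays being almost equal, and the change was -0.15 (SE 0.08, adjusted p = 0.418 in limma).

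On each array the MEX67 signal minus that of MTR2 was -0.60, -0.84 and -0.55 in YRA1∆i cells and -1.01, -1.01 and -1.29 in WT cells. The difference between groups was 0.44, and 0.58 without both replicate 2 arrays. In an exact permutation test over the 6 arrays (two-sided) it had p = 0.10, the smallest value that 3 arrays against 3 allow. This pair was picked after its values had been seen.

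NAB2 encodes a zinc finger protein that binds poly(A) tails and limits their length. It had the second largest change of the members. Its signal was 12.56, 12.57 and 12.49 in YRA1∆i cells and 12.17, 12.06 and 12.24 in WT cells, with a gap of 0.25 between the groups. The change was 0.39 (SE 0.07, 1.31-fold, 95% confidence interval 1.16 to 1.47), at an unadjusted p of 0.00159 and an adjusted p of 0.0931 in limma. By size, 92.2% of all tested probe sets changed less.

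NAB2 and MEX67 missed the looser threshold in every fit, and their changes always stayed under 1.5-fold. Their adjusted p was also above 0.05 in the fit as reported (0.0931 and 0.140 in limma). The same held in every other fit except the array-weighted one and that without both replicate 2 arrays. Without both replicate 2 arrays the change was 0.32 for NAB2 (adjusted p = 0.0403 in limma) and 0.36 for MEX67 (adjusted p = 0.0423 in limma), and in that fit 12.5% of all probe sets had an adjusted p below 0.05 at any fold. Both genes, with YRA1, were also below 0.05 when arrays were weighted by their quality, as were 17.8% of all probe sets. The replicate pairs 1, 2 and 3 gave 0.40, 0.51 and 0.25 for NAB2, and 0.27, 0.17 and 0.44 for MEX67.

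NPL3, GBP2 and HRB1 encode shuttling proteins with arginine-rich regions akin to the SR proteins of animals. NPL3 was at 13.42, 13.58 and 13.43 in YRA1∆i cells and at 13.24, 13.38 and 13.36 in WT cells. Its groups were apart by 0.04, less than the SD within either group (0.09 in YRA1∆i cells and 0.08 in WT cells), with a change of 0.15 (adjusted p = 0.401 in limma). GBP2 was at 12.84, 12.80 and 12.85 in YRA1∆i cells and at 12.77, 12.74 and 12.66 in WT cells.

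The GBP2 change was 0.10 (adjusted p = 0.484 in limma), with a gap of 0.03 between groups. HRB1, the close relative of GBP2, overlapped between the groups, with 12.26, 12.01 and 12.21 in YRA1∆i cells and 12.20, 12.14 and 12.31 in WT cells. Its change was -0.06 (adjusted p = 0.809 in limma), and 0.01 without YRA1∆i replicate 2, so HRB1 has no direction here. The signal of GBP2 minus that of HRB1, also a pair chosen after its values were seen, differed by 0.16 between groups (exact permutation test, two-sided, p = 0.20).

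TOM1 encodes a ubiquitin ligase that modifies Yra1 and helps it leave the particle before export. Its signal was 12.20, 12.18 and 12.34 in YRA1∆i cells and 12.30, 12.32 and 12.14 in WT cells. The groups overlapped, with a change of -0.0075 (95% confidence interval -0.21 to 0.19, adjusted p = 0.975 in limma). Replicate pairs 1 and 2 gave -0.10 and -0.13, pair 3 gave 0.21, and the sign turned with quantile normalization, with array weights, and when some single arrays were left out.

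**Figure D2:**
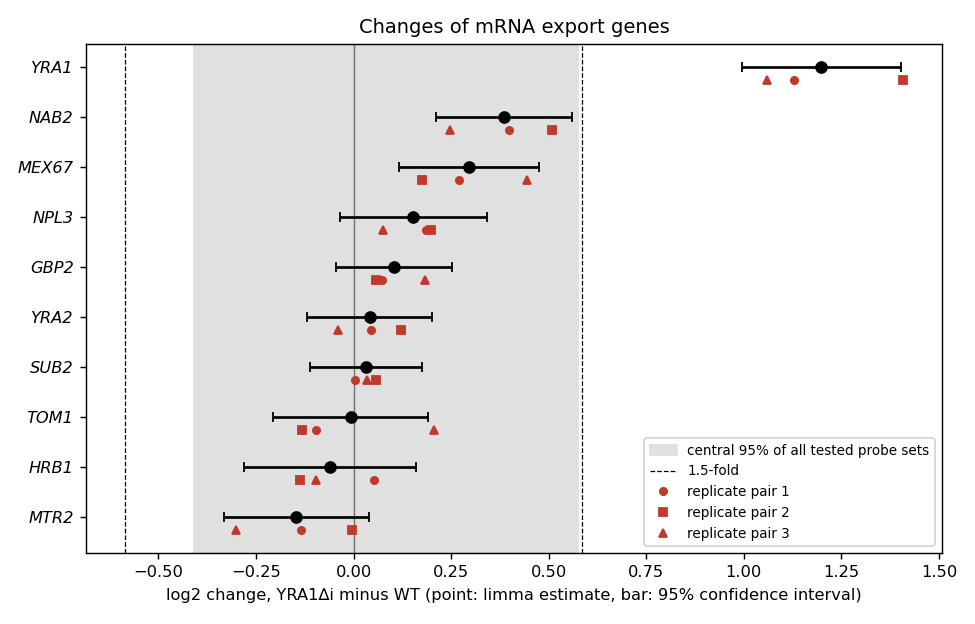
Log2 change (YRA1∆i minus WT, horizontal axis) of each export gene, with the limma estimate and its 95% confidence interval in black and the 3 replicate pairs in red, over the central 95% of all tested probe sets (grey) and the 1.5-fold lines. YRA1 lies at 1.20, beyond both, and the other 9 genes lie between -0.15 and 0.39.

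The YRA1 signal was also set against that of each other member on the same array. Levels of different probe sets cannot be compared, but the shift of this difference between groups can. YRA1 minus SUB2 was 0.65, 0.71 and 0.66 in YRA1∆i cells and -0.48, -0.64 and -0.36 in WT cells, a shift of 1.17. YRA1 minus NAB2 was 1.92, 2.06 and 2.02 in YRA1∆i cells and 1.19, 1.16 and 1.20 in WT cells. This gave the smallest shift, 0.81.

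The shift was 0.90 against MEX67 and 1.35 against MTR2, the largest of the 9. Against YRA2, NPL3, GBP2, HRB1 and TOM1 it was 1.16, 1.05, 1.09, 1.26 and 1.21. In all 9 comparisons each YRA1∆i array lay above each WT array. Each had p = 0.10 in an exact permutation test (two-sided), also after Benjamini-Hochberg adjustment over the 9, and 3 arrays against 3 cannot give a smaller p. All 9 rest on the same YRA1 values. YRA1 was overexpressed by construct and its groups lay 1.04 apart, more than any other member changed. The separation and its p were therefore settled by YRA1 and are no evidence on the partners.

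**Figure D3:**
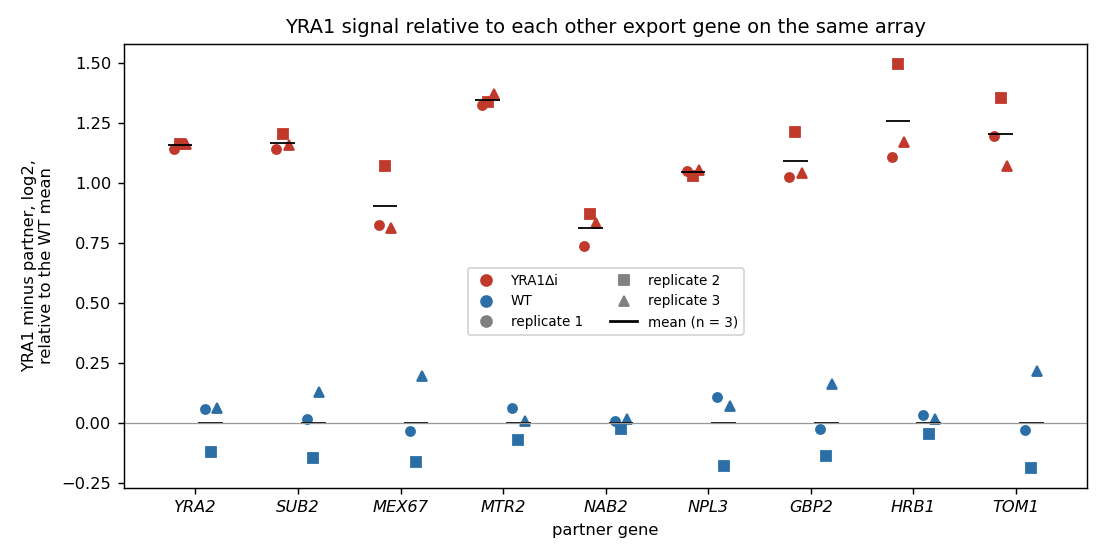
YRA1 signal minus the signal of each other export gene on the same array (vertical axis, log2, relative to the WT mean), by partner gene, with YRA1∆i arrays in red left of WT arrays in blue and means as lines. The shift between groups runs from 0.81 for NAB2 to 1.35 for MTR2.

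The genes whose signal followed that of YRA1 most closely over the 6 arrays were PRO1 (Pearson r = 0.994), DSN1 (0.994), YPL245W (0.990), CUE2 (0.990) and STN1 (0.986). PRO1 encodes an enzyme of proline synthesis, DSN1 a kinetochore protein and STN1 a telomere capping protein. Their changes were far smaller than that of YRA1, from 0.14 for PRO1 to 0.57 for YPL245W, and YPL245W alone of them had an adjusted p below 0.05 (0.0453 in limma, below 1.5-fold), as 23 probe sets (0.418%) did. Of the members, NAB2 came closest with r = 0.980, in place 9 of 5448 genes, and MTR2 ran most against YRA1 (r = -0.66). These coefficients describe 6 points that fall into groups of 3, and they follow mainly the difference between the groups.

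Partners of the export factors were examined next in 7 lists of 39 genes, all of them measured. In all, 28 of the 39 had a change above 0, and their median was 0.07, beside 52.4% positive and a median of 0.01 over all tested probe sets. The groups did not overlap at 11 partners higher and 1 lower in YRA1∆i cells, against the 13.6% and 8.57% of all probe sets given above. At the looser threshold 1 partner passed, HRP1, and at the study's threshold 0 passed. The paper's list of up-regulated genes holds HRP1, DCP1 and PCF11, with PCF11 at less than 1.5-fold.

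HRP1 encodes a subunit of the mRNA cleavage factor that shuttles with the mRNA. It had 12.87, 12.88 and 12.83 in YRA1∆i cells against 12.24, 12.25 and 12.17 in WT cells. The arrays of each group lay within 0.08 of each other, and HRP1 rose by 0.64 (SE 0.06, 1.56-fold, adjusted p = 0.0271 in limma). Without both replicate 2 arrays the adjusted p was 0.00942 in limma, and 4.20% of all probe sets then passed the looser threshold. The call was lost without YRA1∆i replicate 1 (adjusted p = 0.173 in limma) or 3 (0.165), or without WT replicate 1 (0.181) or 3 (0.144).

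HRP1 and PAB1 were placed in the list named after cap binding and cleavage factor IA. In that list 8 of 8 were positive, with a median of 0.09, beside 52.4% positive over all tested probe sets. The smallest change was 0.0034, for PAB1 (adjusted p = 0.989 in limma). The groups did not overlap at 3 of the 8, all higher, as at 13.6% of all probe sets in that direction. PCF11, of the same list, encodes a subunit of cleavage factor IA that recruits Yra1 to the nascent mRNA. It had 11.15, 11.03 and 11.11 in YRA1∆i cells and 10.75, 10.74 and 10.77 in WT cells. Its groups were well separated, but the change of 0.34 (SE 0.06) had an adjusted p of 0.0822 in limma. Without both replicate 2 arrays the PCF11 change was 0.36 (adjusted p = 0.0242 in limma), and 12.5% of all probe sets were then below 0.05. With any 1 array left out its adjusted p was 0.0513 to 0.380 in limma.

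Among genes for the export and decay of the YRA1 pre-mRNA, the looser threshold was passed by 0 of 5. EDC3, the decapping activator that targets the unspliced YRA1 transcript, had 11.11, 10.99 and 11.06 in YRA1∆i cells and 11.08, 10.91 and 10.93 in WT cells. This change was 0.08 (adjusted p = 0.697 in limma). DCP1, which encodes the regulatory subunit of the decapping enzyme, had 12.25, 12.06 and 12.26 in YRA1∆i cells and 11.42, 11.66 and 11.47 in WT cells.

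The DCP1 change was 0.67 (SE 0.09, 1.59-fold) with an adjusted p of 0.0523 in limma, just short of the looser threshold. It passed with replicate number as a block (adjusted p = 0.0491 in limma), where 1.44% of all probe sets passed, and without YRA1∆i replicate 2 (0.0246), where 2.09% did. It also passed with an intensity trend (0.0477), where 0.491% did, without WT replicate 2 (0.0469), where 0.837% did, and without both replicate 2 arrays (0.00550), where 4.20% did. It was further from the threshold without YRA1∆i replicate 1 (adjusted p = 0.299 in limma), YRA1∆i replicate 3 (0.292), WT replicate 1 (0.213) or WT replicate 3 (0.234). The other genes of the list were at -0.05 for DCP2, the catalytic subunit, -0.11 for the exonuclease gene XRN1, and 0.15 for CRM1, an export receptor (adjusted p = 0.540 in limma).

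In the complexes that hand the transcript to the export factors, 0 genes passed the looser threshold. In the THO complex 4 of 5 genes were positive (list median 0.01). THO2, which encodes its largest subunit, was at 11.28, 11.17 and 11.41 in YRA1∆i cells and 11.72, 11.61 and 11.54 in WT cells, with a change of -0.34 (SE 0.09, adjusted p = 0.159 in limma), and MFT1, next by p-value, changed by 0.11 (adjusted p = 0.742 in limma). In the TREX-2 complex, which ties transcription to the nuclear pore, 2 of 5 were positive with a median of -0.0012.

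SUS1, a TREX-2 subunit, had 10.52, 10.95 and 10.65 in YRA1∆i cells and 10.90, 11.79 and 11.08 in WT cells. In both groups replicate 2 was the highest array, the groups overlapped, and the change was -0.55 (SE 0.25, adjusted p = 0.345 in limma). Replicate pairs 1, 2 and 3 gave -0.38, -0.84 and -0.43, and with replicate number as a block the adjusted p was 0.0707 in limma. Without WT replicate 2 the change was -0.28. THP1, another subunit, changed by 0.10 (adjusted p = 0.435 in limma).

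At the pore, 4 of 6 genes for remodelling of the mRNA particle were positive (list median 0.12), and at all 4 the groups did not overlap, as at 13.6% of all probe sets in that direction. The largest change was that of NUP42, a nucleoporin of the cytoplasmic side, at 9.93, 9.93 and 9.87 in YRA1∆i cells and 9.72, 9.63 and 9.72 in WT cells (change 0.22, adjusted p = 0.167 in limma). DBP5, the ATPase that strips Mex67 from the mRNA, changed by 0.16 (adjusted p = 0.238 in limma). Both are small next to the 1.20 of YRA1.

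For the nuclear import and modification of the adaptors, 4 of 6 genes were positive (list median 0.04). The lowest p-values were those of the import receptor genes KAP104 (change 0.12, adjusted p = 0.554 in limma) and MTR10 (0.09, adjusted p = 0.702 in limma), which serve Nab2 and Npl3. In the nuclear basket 3 of 4 were positive with a median of 0.07, PML39 and NUP60 at 0.08 each (adjusted p = 0.580 and 0.649 in limma).

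**Figure D4:**
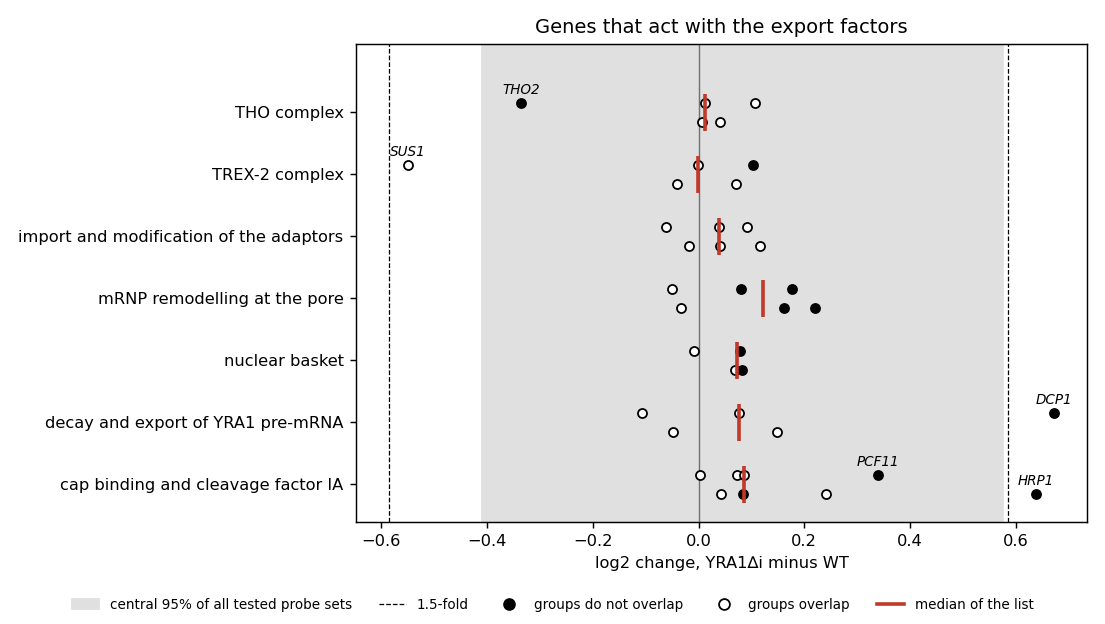
Log2 change (YRA1∆i minus WT, horizontal axis) of 39 partner genes in 7 lists, filled where the groups do not overlap, with list medians in red, the central 95% of all tested probe sets in grey and dashed 1.5-fold lines. DCP1 at 0.67 and HRP1 at 0.64 lie beyond the 1.5-fold line, and list medians lie between -0.0012 and 0.12.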

How the data were processed

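The authors deposited 1 table of log2 RMA values, 1 column per array and 10928 probe sets, made from Affymetrix Yeast Genome 2.0 arrays. The submitters' processing notes name RMA and limma, and versions and genome build are not given in the sources used here. RMA equalises the distributions and so hides any shift common to most transcripts. Gene names came from the platform annotation, updated by gene identifier in the RefSeq R64 table. Of 7245 probe sets listed, 5498 matched 1 S. cerevisiae gene and 1747 were taken as S. pombe. The latter include any probe set annotated to several genes or to a gene absent from the RefSeq table, of either species. No filter was applied. Groups were taken from the titles and tested in R 4.3.3 by limma 3.58.1 with group as the only term (lmFit, eBayes), adjusted over 5498 probe sets. The code of the fit was tried on simulated data with independent noise. That trial had no effect shared by replicate 2 arrays, so it does not bear on such an effect. The number of arrays limits the precision. Genes with several probe sets were read from the brightest.

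The labels number the biological replicates alike in both groups. For numbers 1, 2 and 3 the deviations from the group means correlated between groups at 0.34, 0.69 and 0.30. YRA1∆i replicate 1 correlated better with WT replicate 3 (0.58), and YRA1∆i replicate 3 with WT replicate 1 (0.66). Only number 2 thus matched its like best. The numbers were still treated as pairs and entered as a block in an alternative fit. The members and lists were chosen with earlier results of these data known. The text names the members, the promoter and plasmid genes, EDC3, CRM1, the 5 genes most like YRA1, and in each list the genes past the looser threshold and the 2 with the lowest p. Other genes named were chosen after their values were seen. The alternatives were quantile normalization over the tested probe sets, equal medians, a filter on dim probe sets, the whole table, array weights, robust eBayes, an intensity trend, the replicate block, other thresholds, and fits without single arrays or without both replicate 2 arrays.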

Additional observations from a re-analysis of the deposited data

How the results depend on the processing

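The YRA1 change was positive under all 16 alternative fits, at 1.09 to 1.25, and its adjusted p in limma ran from 0.000441 to 0.112. It passed the study's threshold when dim probe sets were left out (1.20, adjusted p = 0.00995), with all probe sets of the table (1.20, adjusted p = 0.00912), with an intensity trend (1.20, adjusted p = 0.00541), with array weights (1.13, adjusted p = 0.000441), without YRA1∆i replicate 2 (1.16, adjusted p = 0.00763) and without both replicate 2 arrays (1.09). At each of these 1 member passed. With 1 array left out the change was 1.14 to 1.25 and the number of members past the study's threshold 0 to 1. With replicate number as a block the adjusted p of YRA1 was 0.0259 and 0 members passed, and the block changed no call on a member. It raised the probe sets past the looser threshold to 79. With array weights, 981 probe sets (17.8%) had an adjusted p below 0.05, NAB2 and MEX67 among them.

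Over all probe sets the study's threshold was passed by 0 in the fit as reported, by 3 with dim probe sets left out, 4 with all probe sets of the table, 1 with an intensity trend, 152 with array weights, 89 without both replicate 2 arrays, and 0 to 29 with 1 array left out. The looser threshold gave 22, and 23 with no minimum fold. Of the partner genes 0 passed the study's threshold in the fit as reported, where 1 (HRP1) passed the looser one. With array weights and without both replicate 2 arrays 2 (DCP1 and HRP1) passed the study's threshold. The same 2 passed the looser one in these fits, with the block, with an intensity trend, without YRA1∆i replicate 2 and without WT replicate 2. When YRA1∆i replicates 1 and 3, the closest arrays, were averaged as 1 array, a check added after the data were seen, the YRA1 change was 1.22 with an adjusted p of 0.110 and 0 probe sets passed the looser threshold.

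The sign turned only where changes were near 0. TOM1 was at 0.0215 with quantile normalization, 0.0459 with array weights and 0.0549 without both replicate 2 arrays, and between -0.0641 and 0.0249 with 1 array left out (it turned without YRA1∆i replicate 1 or 2 or WT replicate 1 or 2). HRB1 was between -0.109 and 0.0148 with 1 array left out. GAL10, at 0.0083, was at -0.00153 with the closest arrays averaged and between -0.00653 and 0.0278 with 1 array left out (-0.000921 without WT replicate 3). The median of the other 9 members was 0.02 to 0.06 throughout, and the 9 shifts of YRA1 against another member kept their sign, at 0.74 to 1.38. Each member had 1 probe set, so averaging probe sets could not differ.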
